A study of Homo sapiens with 6 samples.

Results

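Cullins, F-box proteins and KLHL proteins are the scaffolds and many of the substrate receptors of the cullin-RING ubiquitin ligases. The genes described here were those whose symbol starts with CUL and a number, with FBXL, FBXO or FBXW and a number, or with KLHL and a number, in either of 2 deposited tables. The rule found 73 of the 10779 genes of the 2 tables. Of these, 56 were among the 8121 genes with a translational efficiency, 68 were among the 9570 mRNAs with ribosome occupancy, and 51 had both values. They comprised 7 CUL, 9 FBXL, 27 FBXO, 7 FBXW and 23 KLHL genes.

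The cells were HEK293, a human embryonic kidney line, and the only condition was a control siRNA. Ribosome-protected fragments (RPFs) were sequenced from 3 RPF_Control libraries and total RNA from 3 TotalRNA_Control libraries of the same lysates, which were prepared with cycloheximide at 100 µg/ml to hold ribosomes in place. The data therefore describe how mRNAs differ from one another in one state of one cell line, and hold no comparison of treatments. Translational efficiency is the ratio of RPFs to total RNA, given for each replicate, whereas the occupancy table gives for each codon the in-frame RPFs divided by the abundance of the mRNA (TPM), with the replicates combined by the authors, so that occupancy has no replicate error.

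In a cullin-RING ligase the C-terminal part of the cullin holds a RING protein, which recruits the ubiquitin-conjugating enzyme, and the N-terminal part holds an adaptor with the substrate receptor. F-box proteins reach CUL1 through SKP1 and are named for the repeats that bind substrates, leucine-rich repeats in FBXL, WD40 repeats in FBXW and other domains in FBXO. KLHL proteins join adaptor and receptor in one chain, with a BTB domain that binds CUL3 and Kelch repeats that bind the substrate.

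The depth of each mRNA could be recovered from the occupancy table, because in all 68 members the low values were whole multiples of the worth of a read. The inverse of that worth, averaged over replicates and divided by its median over the mRNAs solved in this way, served as an abundance index. It stands in for the TPM, which is not given. The members had between 25 (FBXO48) and 18291 (CUL1) in-frame CDS reads, with a median of 1243, against 1821 over all mRNAs. The replicates of translational efficiency had Pearson correlations of 0.987 to 0.990 on the log2 scale across genes, and the median SD between replicates on that scale was 0.10 over all genes and 0.11 over the members. Of genes known from HEK293, LIN28B, NEFL and NEFM had abundance indices above those of 89.9%, 97.8% and 97.5% of mRNAs, while the liver gene ALB and the leukocyte gene PTPRC are in neither table. RPFs may be shared between genes of like sequence, and in 13 of the 73 members over 10% of the 30-mers of the CDS occur in transcripts of another gene. This share is given below for each such member that is named.

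The members ranged over 37.6-fold in translational efficiency, from 0.0718 in KLHL5 to 2.70 in FBXO30. Their median, 0.385, was that of all genes, also 0.385. Each gene was tested against the median of all values, 0.383, with limma at an FDR of 0.05, and 47 of 56 members (83.9%) differed from it, 22 above and 25 below, beside 89.3% of all genes tested, 44.7% above and 44.6% below. Because replicates differed so little that most genes passed, a difference beyond 2-fold was tested as well, which 18 members passed (32.1%), 7 above and 11 below, beside 41.4% of all genes, 23.3% above and 18.2% below. The share of members called was thus no higher than that of the table as a whole by either rule. When the members were put in order, 47 of the 55 neighbouring pairs had replicate values that overlapped, so that the exact order within the list is mostly not resolved.

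**Figure D1:**
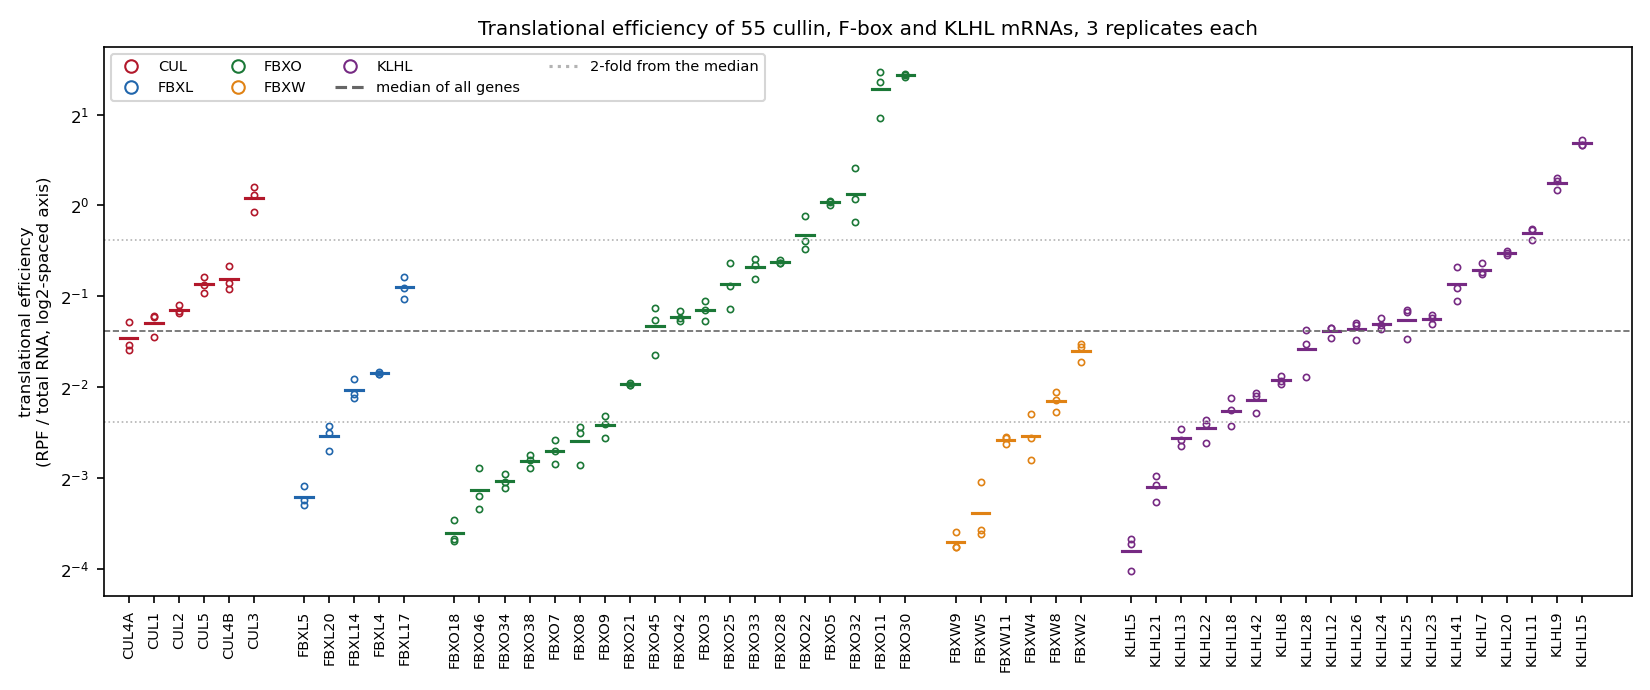
Translational efficiency (RPF over total RNA, log2-spaced axis) of 55 of the 56 members by family, with each replicate as an open circle, the mean as a bar, the median of all genes as a dashed line and 2-fold from it as dotted lines. All 6 FBXW mRNAs lie below the dashed line in every replicate, whereas FBXO and KLHL mRNAs spread from far below it to far above it.

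Among the cullins, translational efficiency lay close to or above the median of all genes, and CUL3, the scaffold that the KLHL proteins bind, stood above the others. CUL3 (chromosome 2, 225334867 to 225450114, GRCh37, minus strand) had efficiencies of 1.15, 0.951 and 1.08 in replicates 1 to 3, all above every replicate of the other cullins, and was 2.72-fold above the median (log2 difference 1.44, SE 0.07, limma adjusted p = 1.97e-05). CUL4B had 0.554, 0.529 and 0.628, and CUL5, which works with SOCS-box receptors, had 0.581, 0.514 and 0.546. These replicates overlapped, and both genes were called above the median by less than 2-fold.

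CUL2, the scaffold of the VHL ligase, had 0.468, 0.447 and 0.438 and also passed the test, at a log2 difference of 0.23. CUL1, the scaffold of the F-box proteins, had 0.430, 0.365 and 0.426, and CUL4A, which together with CUL4B binds DDB1, had 0.345, 0.412 and 0.332. Neither CUL1 nor CUL4A passed the test (limma adjusted p = 0.299 and 0.345). Among 6 cullins 4 were thus called above and none below, beside 44.7% and 44.6% of all genes, and CUL3 alone passed the 2-fold rule, beside 23.3% of all genes above.

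Occupancy also placed CUL3 first, but had CUL2 ahead of CUL4B. CUL3 had a mean of 0.226 per CDS codon, above 96.2% of all mRNAs and the highest of the 68 members, followed by CUL2 at 0.141 (90.9%). CUL4B had 0.107, CUL1 0.0616, CUL4A 0.0590 and CUL7, the scaffold that pairs with FBXW8, 0.0272. For CUL7 the value is uncertain, as 23.5% of its 30-mers occur elsewhere, CUL9 included. The median of the 6 cullins was 0.0842 against 0.0450 over all mRNAs. Cullin mRNAs were also the most deeply covered of the list, with a median of 14660 CDS reads.

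CUL4A and CUL4B are close relatives, and their ribosome profiles could be set side by side. Their CDSs align over 658 codons, of which 85.6% encode the same amino acid and 39.7% are the same codon. In both mRNAs the highest codon of the whole CDS is the same aligned methionine codon, number 46 in CUL4A and 282 in CUL4B. The sequences under a 30 nt footprint placed with its P site on that codon are shown because they carry the peak, with the codon in capitals and the footprint starting 13 nt before it:
CUL4A codon 46: ccactgcagacaaATGatcatgatcagaag
CUL4B codon 282: ccattgcagacaaATGatcatgatcaggag

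Codon 46 lies in exon 4 of CUL4A at chr13:113882357-113882359 (plus strand), and codon 282 in exon 4 of CUL4B at chrX:119680402-119680404 (minus strand), both on GRCh37. Their windows differ at 2 of 30 positions, C4T and A28G, with CUL4A given first and positions counted from the 5′ end of the window. The codon had 18.6 times the mean occupancy of the CDS in CUL4A and 24.7 times in CUL4B, from an estimated 392 and 386 reads, which was 2.78% and 2.76% of CDS occupancy. Windows so alike can share reads, so codons whose windows differ more were also taken on their own.

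Over all 658 aligned codons the Spearman coefficient of relative occupancy was 0.39, over the 641 codons whose windows differ at 4 or more positions it was 0.38, and over the other 17 it was 0.81. These coefficients are descriptions across codons of 2 mRNAs in the same libraries, and this pair was chosen after its values were seen.

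**Figure D2:**
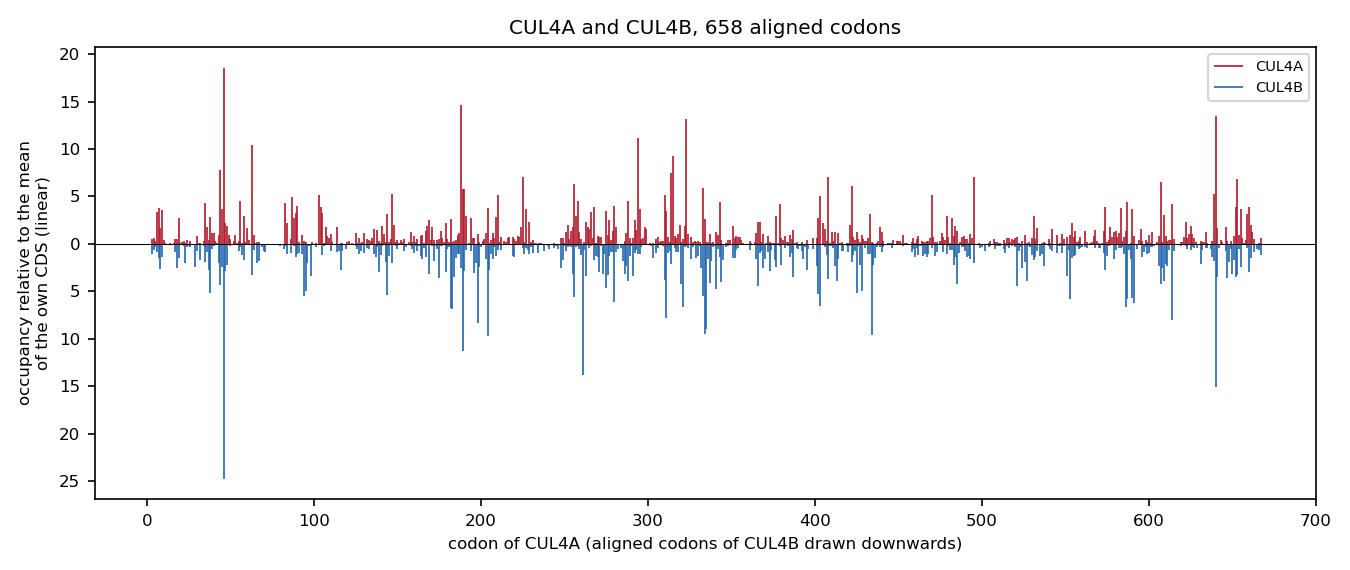
Occupancy of each aligned codon divided by the mean of the own CDS (linear axis), CUL4A upwards and CUL4B downwards, against the codon number of CUL4A. The peak at codon 46 (18.6 and 24.7 times the mean) is the highest of both mRNAs, and peak heights elsewhere can be compared codon by codon.

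The cullins differed in how RPFs were spread. CUL4B had 0.0180 per codon in its first 75 codons and 0.130 in its last 75, a ratio of 0.138, whereas CUL4A had 0.0733 and 0.0674, a ratio of 1.09. The first windows of these 2 mRNAs are not matched regions. The alignment starts with codon 2 of CUL4A and codon 238 of CUL4B, so the first 75 codons of CUL4B lie ahead of it. CUL7 went the other way, with 0.0540 against 0.00671. In the 5′UTR, CUL1 had in-frame occupancy of 0.185 of its CDS value, from an estimated 493 reads. These were concentrated, with 38.1% of the in-frame 5′UTR occupancy at 22 codons before the AUG and 26.3% at 20 codons before it, from an estimated 187 and 129 reads. No in-frame ATG reading frame of the annotation covers these codons, since the one found runs from 50 to 35 codons before the CDS and held 5.56%.

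Among FBXL mRNAs the lowest translational efficiency was that of FBXL5, the iron-regulated receptor that targets IRP2, with 0.118, 0.102 and 0.105, 3.33-fold below the median (log2 difference -1.73, SE 0.06, limma adjusted p = 6.73e-06). FBXL17, which removes misassembled BTB proteins, had 0.534, 0.579 and 0.491 and was called above the median. FBXL20 (0.172 ± 0.0164, SD, n = 3), FBXL14 (0.245 ± 0.0189, SD, n = 3) and FBXL4 (0.277 ± 0.00241, SD, n = 3) lay between them. All 6 FBXL mRNAs passed the test, beside 89.3% of all genes called in either direction. Of the 6 FBXL mRNAs, 2 were above and 4 below, beside 44.7% and 44.6% of all genes. FBXL5 alone was beyond 2-fold, beside 18.2% of all genes beyond 2-fold below.

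The 6 FBXW mRNAs with a translational efficiency were all called below the median, from 0.0765 to 0.329 with a median of 0.170, against 44.6% of all genes called below. FBXW9 had 0.0825, 0.0735 and 0.0736. FBXW5 had 0.0817, 0.121 and 0.0841, with the highest replicate well apart from the others. FBXW11, also called β-TrCP2, which recognises phosphorylated β-catenin and IκB, had 0.170, 0.170 and 0.162, and 16.1% of its 30-mers occur in other genes. These 3 mRNAs were beyond 2-fold below the median, beside 18.2% of all genes. FBXW11 was so only with all 3 replicates in the fit and a pseudocount of 0.01.

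BTRC, the gene of β-TrCP1 and the close relative of FBXW11, had 0.738, 0.660 and 0.679, which is 4.13-fold above FBXW11, and the replicates did not overlap. FBXW4 (0.172 ± 0.0305, SD, n = 3, 16% of 30-mers shared) and FBXW8, the partner of CUL7 (0.225 ± 0.0175, SD, n = 3), lay higher than FBXW9 and FBXW5. FBXW2 came nearest to the median, with 0.347, 0.303 and 0.338 (limma adjusted p = 0.0197), and was no longer called without replicate 2 (adjusted p = 0.0811) or 3 (adjusted p = 0.0561).

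FBXW5 (chromosome 9, 139834887 to 139839190, minus strand) also had the lowest occupancy of the 68 members, 0.00389 per codon, below that of all but 0.815% of mRNAs. Its mRNA was among the more abundant ones by the abundance index, at 5.05 times that of the median mRNA (88.4th percentile). The index reflects the divisor of occupancy, so that a low occupancy and a high index are not independent. The 994 CDS reads of FBXW5 were spread over the CDS without a dominant codon. FBXL19 was alike in these values, with an occupancy of 0.00402, an abundance index of 3.87 and 532 reads. It is represented by a transcript with a CDS of 383 codons and a 5′UTR of 317. That 5′UTR held 23.8% of its in-frame occupancy, against 0.995% in FBXW5, and other transcripts of FBXL19 are not described. FBXW7, the receptor for cyclin E and MYC, is represented by a transcript with a CDS of 177 codons, had 0.00678 and 175 reads, and so does not describe the longer FBXW7 mRNAs. KLHL29 (0.00769) and KLHL2 (0.00871, 19.5% of 30-mers shared) completed the lowest 5. The median over the 7 FBXW mRNAs was 0.0163 per codon and over the 9 FBXL mRNAs 0.0215.

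FBXO mRNAs spanned almost the whole range of the list. FBXO30 (chromosome 6, 146114638 to 146135931, minus strand), a ligase component known from muscle atrophy, had 2.70, 2.67 and 2.72, 6.88-fold above the median (log2 difference 2.78, SE 0.05, limma adjusted p = 1.36e-06). FBXO11, a receptor for BCL6, had 1.95, 2.56 and 2.77, so that 1 replicate lay above all of FBXO30 and the others below them. FBXO32 (atrogin-1), another atrophy gene, had 0.879, 1.33 and 1.05 from only 346 CDS reads, and FBXO5 (EMI1), an inhibitor of the anaphase-promoting complex, had 1.04, 1.01 and 1.02. These 4 mRNAs were beyond 2-fold above the median, beside 23.3% of all genes, FBXO32 no longer with a pseudocount of 0.1. FBXO22 had 0.919, 0.763 and 0.717, and at 2.05-fold did not pass the 2-fold rule (limma treat adjusted p = 0.725).

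At the other end, FBXO18, the gene of the DNA helicase FBH1, had 0.0903, 0.0774 and 0.0784. FBXO46 had 0.0986, 0.134 and 0.109, and FBXO34 had 0.128, 0.121 and 0.116. FBXO7, linked to Parkinson disease, had 0.139, 0.153 and 0.167, 2.42-fold below the median, although its mRNA was one of the most abundant of the list (abundance index 4.85). FBXO38, at 0.142 ± 0.00709 (SD, n = 3), was the fifth beyond 2-fold below, beside 18.2% of all genes. With a pseudocount of 0.1 neither FBXO7 nor FBXO38 passed the 2-fold rule. Of 19 FBXO mRNAs, 10 were called above and 8 below, near the shares of all genes (44.7% and 44.6%), and 1 was not, FBXO45, whose replicates of 0.458, 0.416 and 0.320 straddled the median. Their median occupancy was 0.0451, with FBXO32 (0.128) and FBXO11 (0.115) the highest.

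KLHL mRNAs likewise reached from one end to the other, and 6 of 19 were not called, beside 872 of the 8121 genes of the whole table. KLHL15 (chromosome X, 24001833 to 24045303, minus strand), the adaptor that targets a regulatory subunit of the phosphatase PP2A, had 1.65, 1.59 and 1.58, 4.11-fold above the median (log2 difference 2.04, SE 0.05, limma adjusted p = 2.47e-06), and its lowest replicate was above every replicate of KLHL9. KLHL5 (chromosome 4, 39046659 to 39128477, plus strand) was the lowest member of all, with 0.0754, 0.0785 and 0.0613, 4.83-fold below the median, and 12.7% of its 30-mers occur in another gene. KLHL21 had 0.127, 0.118 and 0.104, 3.12-fold below. KLHL11 had 0.827, 0.835 and 0.770.

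KLHL9 and KLHL13 encode related adaptors which, with KLHL21, act on Aurora B in mitosis. KLHL9 had 1.20, 1.12 and 1.23, whereas KLHL13 had 0.167, 0.160 and 0.182, 6.99-fold lower, and no replicate of one came near those of the other. Little sequence is shared between them, as 1.86% of the 30-mers of KLHL9 and 1.80% of those of KLHL13 occur in another gene. KLHL13 was at the 73.8th percentile of occupancy, and KLHL9 has no occupancy, so the pair could not be compared in that measure. This pair too was picked after its values were seen.

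KLHL12, which acts on the COPII coat protein SEC31, lay at the median (0.393, 0.363 and 0.391), but 34.7% of its 30-mers occur elsewhere. KLHL20, known for acting on DAPK and PML, had 0.704, 0.683 and 0.696, and KLHL22, a regulator of PLK1, had 0.164, 0.188 and 0.195. Both were called, above and below respectively, and KLHL22 at 2.05-fold missed the 2-fold rule (limma treat adjusted p = 0.637). In all, 6 KLHL mRNAs were called above and 7 below, beside 44.7% and 44.6% of all genes. Beyond 2-fold were 2 in each direction, shares below those of all genes (23.3% and 18.2% beyond 2-fold).

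Translational efficiency and CDS occupancy are not independent, since both hold the RPFs. Across the 51 members with both values their Spearman coefficient was 0.65, beside 0.69 over 6912 mRNAs. Some members stood far apart in the 2 measures. KLHL13 was at the 19.9th percentile of efficiency and the 73.8th of occupancy, FBXL20 at the 20.3rd and 70.5th, and KLHL5 at the 3.24th and 44.3rd. FBXO45 showed the opposite, at the 51.1st percentile of efficiency and the 24.7th of occupancy. Occupancy is given for one transcript of each gene.

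Efficiency had almost no rank correlation with the abundance index among the members (-0.02, n = 51) or with CDS length (0.02, n = 51), where over 6912 mRNAs the coefficients were 0.15 and -0.26. With GC content of the CDS it was -0.32 (n = 49), beside -0.26 over 6651 mRNAs. The 17 members with a CDS of at least 50% GC had a median efficiency of 0.226 and the other 32 a median of 0.406, and in the whole table the medians were 0.308 and 0.485. These coefficients are across genes measured in the same libraries, and genes are not replicates.

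**Figure D3:**
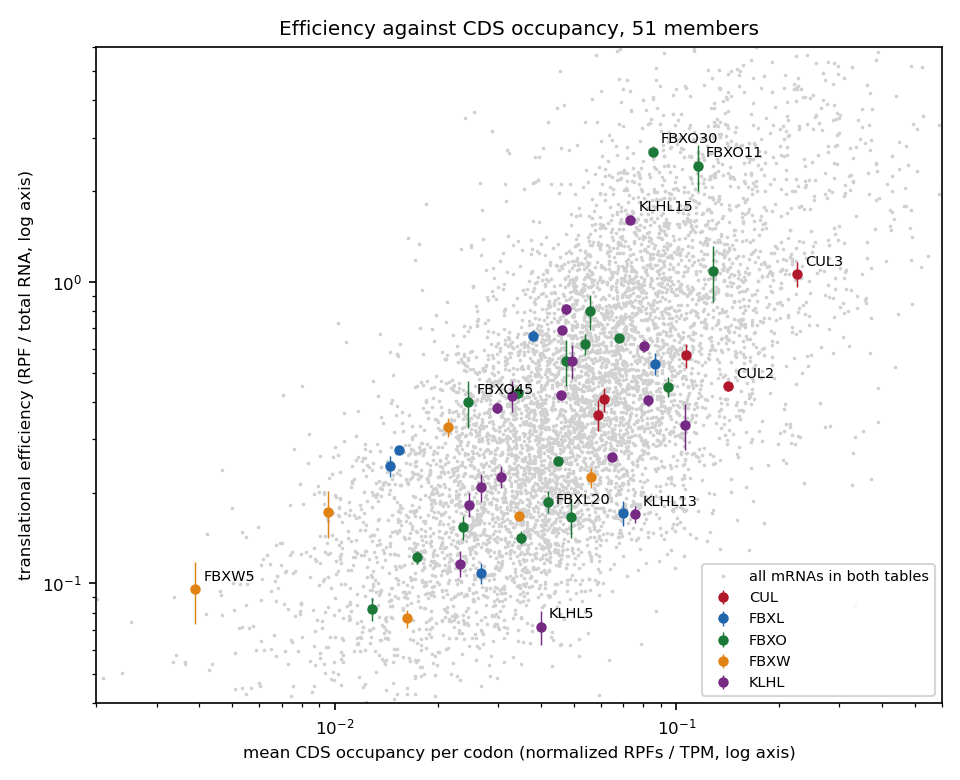
Translational efficiency (mean of 3 replicates, bars ± SD) against mean CDS occupancy per codon, both on log axes, for 51 members in colour and 6912 mRNAs in grey, 178 of which lie outside the axes. Members lie within the grey cloud, with CUL3 at the right, FBXW5 at the far left, and KLHL13, FBXL20 and KLHL5 below the main band.

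Within the CDS, the balance between start and end varied widely among the 68 members. The median ratio of the first 75 to the last 75 codons was 0.90, and 36 members (52.9%) had less at the start, beside 50.4% of all mRNAs. With windows of 50 codons the median was 1.07, so no direction holds for the list as a whole. The lowest ratios were those of FBXO33 (0.00507 per codon at the start against 0.0733 at the end, a ratio of 0.0691), FBXO28 (0.0988), FBXO45 (0.120), FBXL17 (0.133), CUL4B (0.138), FBXO21 (0.161) and KLHL11 (0.165). The highest ratios were those of FBXO6 (0.148 against 0.0134, a ratio of 11), CUL7 (8.04) and FBXO44 (5.76), with 195, 785 and 289 CDS reads. FBXO6, a receptor for glycoproteins, shares 11.5% of its 30-mers with its relative FBXO44, and FBXO44 shares 15.2% with FBXO6. For CUL7 the sharing given above applies here too.

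GC content at the start moved with this balance. In 20 members the first 75 codons were at least 65% GC, and 15 of these (75%) had less occupancy at the start, with a median ratio of 0.466. Among the 45 members below 65% GC, 19 (42.2%) had less at the start, and the median ratio was 1.1. All 8417 mRNAs with a matched sequence showed the same, with 74.5% and 43.9%. The Spearman coefficient of the ratio with the difference in GC between the windows was -0.57 in 65 members and -0.56 in 8417 mRNAs. Exceptions to the split at 65% GC stood on both sides. CUL4B with 51.1% GC at the start had a ratio of 0.138, with 35.6% GC in its last 75 codons. FBXW5 with 69.8% GC at the start had a ratio of 1.34, and FBXL14 with 70.7% GC had 1.30. Whether GC content changes how RPFs are recovered or aligned was not tested.

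**Figure D4:**
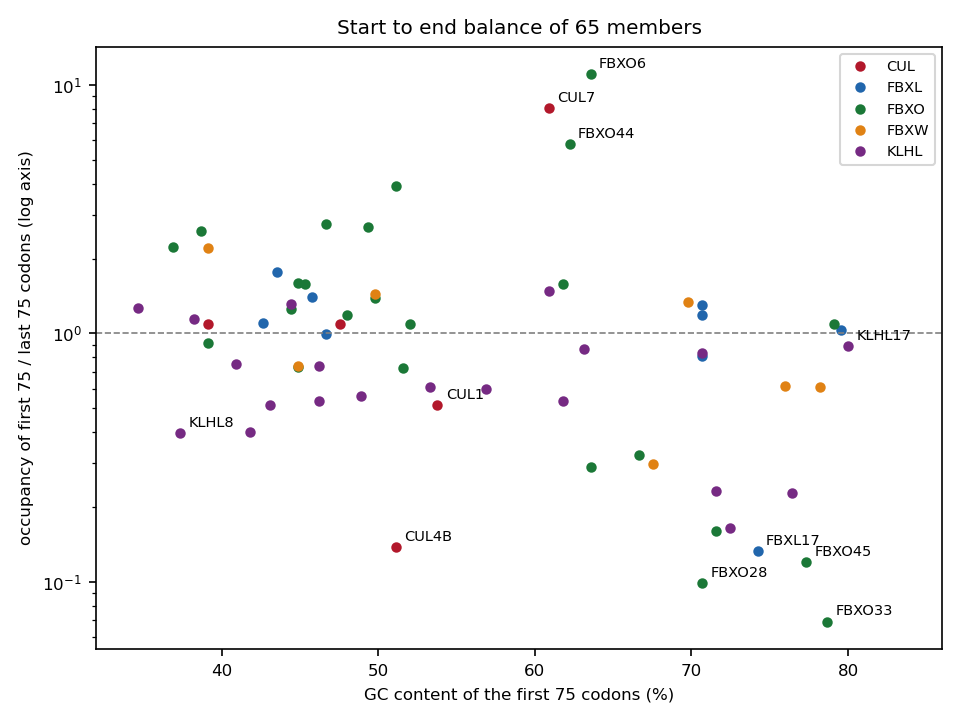
Ratio of occupancy in the first 75 to the last 75 codons (log axis) against GC content of the first 75 codons for 65 members, one point each. Ratios below 0.2 lie at over 70% GC except that of CUL4B, and the 3 ratios above 5 (FBXO6, CUL7 and FBXO44) lie between 60% and 65% GC.

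Single codons held a large share of CDS occupancy in a few members. The highest codon had 10% or more in 6 of 68 members (8.82%), beside 15.1% of all mRNAs, and 5 of the 6 had at least 100 reads. Of these 5, 4 are shown with the codon in capitals and 12 nt on either side, to let the reader see what lies under the peak:
FBXW7 codon 138: gaagatgaacatACAcatactaacagt
KLHL29 codon 355: agcttgtatttcAAGgacctgattcaa
KLHL42 codon 254: atcctggacaacTACctcttcatagtg
FBXO45 codon 239: gacatggaagatAAGactttagctttt

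In FBXW7 the peak (chr4:153332542-153332544, last exon of the transcript, minus strand) held 12.4% of occupancy, from 22 of 175 reads (12.6%, Wilson 95% interval 8.45% to 18.3%). In KLHL29 (chr2:23907391-23907393, exon 6) it held 10.9%, from 27 of 255 reads (10.6%, 7.38% to 15%), and the codon stood 95.1 times above the mean of an otherwise thinly covered CDS. KLHL42, a CUL3 adaptor for katanin, had 10.6% at chr12:27934023-27934025 in exon 1, from 129 of 1210 reads (10.7%, 9.05% to 12.5%). FBXO45, an atypical F-box protein that works with MYCBP2, had 10.5% at chr3:196311043-196311045 in exon 3, from 89 of 847 reads (10.5%, 8.62% to 12.8%). FBXO16 had 11.6%, from 30 of 256 reads (11.7%, 8.33% to 16.2%). The intervals cover counting error only, and those of all 5 mRNAs reach under 10%.

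The highest codons shared a feature with those of other mRNAs. The codon after the highest one encoded aspartate or glutamate (GAA, GAG, GAC or GAT) in 24 of 65 members (36.9%), beside 34.8% of 9133 mRNAs. Of the codons of the members, however, 11.8% stand before such a codon, leaving out those nearest the start and the stop. The highest codons were taken from the whole CDS. With the same codons left out, codons before an acidic codon had on average 1.97 times the mean of their CDS and other codons 0.879. This is a ratio of 2.23, and in all mRNAs the ratio was 2.07. Of the 4 sequences above, KLHL29 has GAC after the peak, and the others do not have an acidic codon there.

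Occupancy upstream of the start codon was as common among the members as elsewhere or less so. Of 66 members with at least 10 codons of 5′UTR, 15 (22.7%) had mean in-frame 5′UTR occupancy above 0.1 of the CDS mean, beside 29.2% of all mRNAs, and 20 (30.3%) had no in-frame read there, beside 19.9%. Members without one are not shown to lack ribosomes there, since a count of 0 allows up to 3 reads. The highest ratio, 0.567 in FBXO31, came from 12 reads at the codon next to the AUG, and 22.6% of its CDS 30-mers are shared. FBXW2 had 0.499 from 156 reads, FBXL19 0.38 from 172, FBXL4 0.359 from 85 and FBXO38 0.288 from 35.

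In FBXL4 and KLHL24 part of this occupancy lay in a short upstream reading frame that is in frame with the CDS and ends before it. Both were noticed after the values were seen, and their start codons are shown in capitals, with 12 nt on either side:
FBXL4 upstream ATG: cagggtacctggATGaatgccaacttt
KLHL24 upstream ATG: ttgatcaaccaaATGctaaaaagccac

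The frame of FBXL4, a regulator of mitophagy, has 28 codons from 42 to 15 codons before the CDS, with its ATG at chr6:99375632-99375634 in exon 3. It held 31 reads on 14 codons and 35.4% of the in-frame 5′UTR occupancy, and its mean of 0.0116 per codon compared with 0.00430 in the rest of the 5′UTR and 0.0154 in the CDS. That of KLHL24, an adaptor known to act on keratin 14, has 18 codons from 24 to 7 codons before the CDS, with its ATG at chr3:183361320-183361322 in exon 2. It held 23 reads on 13 codons and 57.4% of the occupancy, with 0.0272 per codon against 0.00471 in the rest and 0.0827 in the CDS. Reads in other frames are not in the table, so upstream frames out of frame with the CDS were not seen here, whether they overlap it or end before it.

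Past the stop codon, 8 of 68 members (11.8%) had more than 1% of their occupancy in the 3′UTR, beside 8.38% of all mRNAs. All 8 had few reads there, from 2 in FBXO6 to 30 in FBXL20.

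The members work with subunits and enzymes that the rule does not take, and 79 of 89 such genes had a translational efficiency. Of these, 38 were called above the median and 35 below, and 15 and 10 beyond 2-fold, beside 44.7% and 44.6% of all genes called and 23.3% and 18.2% beyond 2-fold, so that the list as a whole was close to the background or below it. The 8 RING and core subunits had the highest median of the 5 roles, 1.17, with 6 above and 2 below, whereas the 45 further substrate receptors had a median of 0.341, with 19 above and 23 below. Over 10% of the 30-mers are shared in RNF7, SKP1, ELOB, ELOC and ARIH2 among the core subunits. Neddylation genes had 0.363 (n = 7), genes of deneddylation and receptor exchange 0.533 (n = 13), and ubiquitin-conjugating partners 0.454 (n = 6).

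RBX1, the RING protein of CUL1 to CUL4 ligases, had the highest efficiency of the pathway, with 7.93, 8.30 and 8.07, 20.6-fold above the median. RNF7, its relative that serves CUL5, had 0.170, 0.170 and 0.173, and 22.7% of its 30-mers occur in other genes. UBE2R2 had 4.03, 4.10 and 4.06, whereas CDC34, its relative and likewise a chain-extending enzyme of F-box ligases, had 0.150, 0.154 and 0.139. ARIH1, which hands ubiquitin to substrates of neddylated ligases, had 3.0, 2.83 and 2.94, and ARIH2, the partner of CUL5, had 0.113, 0.113 and 0.111, with 13% of 30-mers shared. CAND1, the exchange factor of F-box receptors, had 2.27, 2.21 and 2.18, and CAND2 had 0.181, 0.167 and 0.176. In each of these 4 pairs the replicates did not overlap and the means lay 12.7-fold to 47.3-fold apart. The pairs were chosen after their values were seen. Mean CDS occupancy differed in the same direction, but by less in each pair. It was 0.191 in RBX1 and 0.0464 in RNF7, and 0.247 in UBE2R2 and 0.0146 in CDC34. ARIH1 had 0.0600 and ARIH2 0.0182, and CAND1 had 0.0839 and CAND2 0.0246.

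UBE2D1 (3.76 ± 0.254, SD, n = 3) was also among the 4 highest. By the mean of log2 values, the 4 lowest were DCAF8 (0.0683 ± 0.00968, SD, n = 3, with all of its 30-mers shared), the COP9 signalosome subunit COPS7A (0.0947 ± 0.0158, SD, n = 3), ERCC8 (0.103 ± 0.0130, SD, n = 3), a receptor of transcription-coupled repair, and DCAF4 (0.111 ± 0.0298, SD, n = 3). DCAF4 had 0.124, 0.0774 and 0.133, and by the mean of the ratios themselves DDB2 (0.102, 0.118 and 0.113) was lower.

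**Figure D5:**
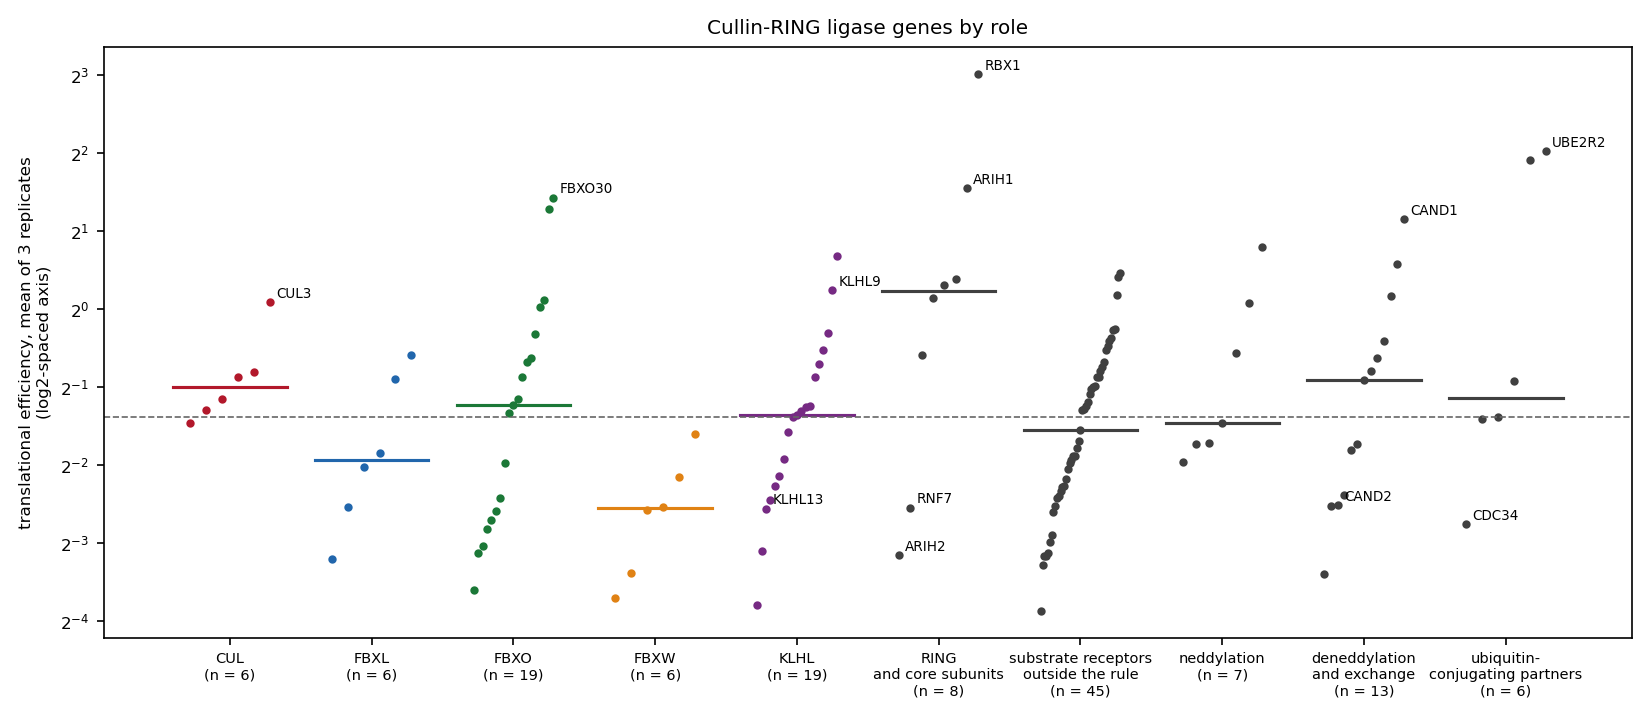
Translational efficiency (mean of 3 replicates, log2-spaced axis) of the 5 member families in colour and of 79 other genes of cullin-RING ligases in dark grey by role, with the median of each group as a bar and that of all genes as a dashed line. RBX1, UBE2R2, ARIH1 and CAND1 stand at the top of their groups and their relatives RNF7, CDC34, ARIH2 and CAND2 below the dashed line.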

How the data were processed

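RPFs and total RNA of HEK293 cells (3 libraries each, labelled control siRNA) were prepared and sequenced by the authors. According to the study's methods, adapters and PCR duplicates were removed, bowtie mapped RPFs onto hg19 transcripts, the P site being set 13 nt from the 5′ end of a read, and Hisat2 and HTSeq served for total RNA. The submitters' processing notes name cutadapt 1.16, Bowtie 1.1.2, TopHat2 2.1.1 and HTSeq 0.9.1. The deposited translational efficiency is a ratio of RPFs over total RNA, one column a replicate, and its formula is not stated in the labels or methods. The deposited occupancy is a list of values for the codons of an mRNA, which the authors made from in-frame RPFs by scaling to library size, dividing by the TPM of total RNA and combining replicates, with a single transcript chosen for a gene by abundance. In 31 transcripts the lists were broken over lines and were rejoined.

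Translational efficiency was tested with limma 3.58.1 (R 4.3.3) on log2(value + 0.01) over all 8121 genes, two-sided, each gene being set against the median of the table. No gene was filtered out, and Benjamini-Hochberg adjusted p-values were called at an FDR of 0.05. The 2-fold rule is limma treat with a threshold of 1 on the log2 scale. RPF and total RNA libraries of one number share a lysate according to the methods, so the pairing lies within the deposited ratio. Whether the replicates are separate cultures is not stated in the labels, and p-values measure the spread between these 3 ratios, which may be technical. Read numbers were recovered from occupancy by searching values up to 60 times the smallest for 3 steps (relative tolerance 1e-08) and were estimated above that. The start codon had 2.49 times the CDS mean over 9347 mRNAs and the stop codon 0.0143 times, so positions are those of the P site. Sequences come from GENCODE 44 on GRCh37, matched by symbol and CDS length for 65 of the 68 members. 30-mers were counted over all its transcripts. Python 3.11.15 and Biopython 1.88 were used. The tests and the read recovery were tested on simulated data.

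The members, the lists and the rule for named genes were chosen with earlier results of these data known. The rule takes all cullins, the 3 highest and 3 lowest translational efficiencies of each other family, 13 well-known adaptors, the 5 highest and 5 lowest occupancies, the 5 members with the largest share in a single codon and the 5 with the highest 5′UTR ratio (each with at least 100 reads, and the latter with at least 10 codons of 5′UTR), and the 4 highest and 4 lowest other genes of the pathway. Genes named beyond it were chosen after their values were seen. One named member and one sequence window are not reported here.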

Additional observations from a re-analysis of the deposited data

How the results depend on the processing

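With a pseudocount of 0.1, genes with at least 100 CDS reads only, the replicate block, or any replicate left out, between 42 and 48 members differed from the median (47 in the report) and between 14 and 18 were beyond 2-fold (18). All 51 members with both values had at least 100 reads, so the read limit does not test depth among them. It only took out CUL5, FBXO5, FBXO46, KLHL9 and KLHL26, which have no occupancy, and its counts are out of 51 members. Leaving out a replicate gave 45 to 46 and 17 members, and FBXW11 was the one lost from the 2-fold rule each time. With the replicate block, which subtracts from each replicate its own median over all genes, 47 and 18 members were called, the same genes as without it. No term for the pair was fitted, as each gene has a single value per replicate. The medians of the replicates lay close together, so this setting changes little and does not test the pairing. A pseudocount of 0.1 lowered the share of all genes beyond 2-fold from 41.4% to 30.8% and that of the members to 14 of 56, without FBXO32, FBXO38, FBXO7 and FBXW11. Of single genes, FBXO42 was not called with at least 100 reads or without replicate 1, 2 or 3 (log2 difference 0.12 to 0.19), FBXO3 without replicate 1 or 3, and FBXW2 without replicate 2 or 3. Signs turned, over the replicates left out, in genes near the median that were never called: FBXO45 (log2 difference -0.073 to 0.19), KLHL12 (-0.027 to 0.027) and KLHL26 (-0.015 to 0.069). The median of the cullins was 0.451 under the limit of 100 reads, against 0.499, as CUL5 has no occupancy and drops out. The median of first over last window turned from 0.90 to 1.07 with windows of 50 codons and the cause was not tested. The counts of 5′UTR occupancy and of single codons, and the median occupancies of the families, stayed within the limits set (1.5 times for counts, 10% for medians). Depth limits FBXO48 (25 reads), FBXO4 (162), KLHL36 (171), FBXW7 (175) and FBXO6 (195 reads), whose codon values rest on few reads.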
